A study of Caenorhabditis elegans with 78 samples.

Results

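The cytosolic ribosomal protein genes of *Caenorhabditis elegans* were taken as every gene in the count tables whose name starts with rpl- or rps- followed by a number. The rule found 76 of 42048 genes, of which 45 carry an rpl name (proteins of the large ribosomal subunit) and 31 an rps name (proteins of the small subunit). RNA of whole young adults was sequenced from 6 strains, with 4 libraries from separate cultures per strain and 24 libraries in all. One strain was the wild type N2, and the single mutants carried allele zr1234 of *jmjd-5* or allele zr1010 of *jmjd-1.2*. The triple mutant carried allele gk384 of *jmjd-3.1* with tm3121 of *jmjd-3.2* and tm3197 of *jmjd-3.3*. The quadruple mutant carried zr1234 on top of these 3 alleles, and the double mutant zr1234 and zr1010. All animals, wild type included, had been kept for 3 generations (F3) at 25°C.

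Every cell makes its proteins on ribosomes, in which each ribosomal protein is present in about equal number, and the genes for these proteins are therefore among the most transcribed genes of a growing animal. In *C. elegans* the adult germline fills its oocytes with ribosomes, and the TOR and S6 kinase pathway is known to tune how many ribosomes a cell makes. The mutated genes encode JmjC proteins, several of which remove methyl groups from histone H3. In whole animals, fewer cells of a type and less RNA per cell cannot be told apart.

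In N2 the libraries held between 3927979 and 6372354 counts, and over all strains between 3087933 and 9906241. N2 replicates 2 and 4 differed by less than sampling noise (mean chi-square per gene 0.982), and *jmjd-5* replicates 3 and 4 by hardly more (1.03). Each of these pairs was summed and counted as 1 sample, which left 22 samples, 3 each for N2 and *jmjd-5* and 4 for each other strain. Counts on *jmjd-1.2* were 1 to 13 in the 8 libraries that carry its mutation and 611 to 2256 in the others, as labelled. The zr1234 allele consists of point mutations, and counts on *jmjd-5* (268 to 811) cannot check it. For all 3 genes mutated in the triple mutant, its counts overlapped those of N2 (116 to 198 against 61 to 144 for *jmjd-3.1*), and whether the counted reads lie outside the deletions was not tested. All 10 germline and all 10 oocyte markers had at least 10 counts in every library, as had 8 of 10 sperm markers. Transcripts of 6 yolk genes took 0.372% to 0.938% of counts and those of 6 genes that mark moulting larvae 0.0163% to 0.0797%, and the part of tissue makeup in the results below was not tested.

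The counts on the 76 genes together were nearly the same in every library, whatever the strain and whatever the depth. They summed to 61284 to 68092 in the N2 libraries and to 66315 to 68745 in *jmjd-5*. The sums were 66639 to 71303 in *jmjd-1.2* and 66152 to 67944 in the triple mutant. In the quadruple mutant they ran from 56791 to 69933, and in the double mutant from 58587 to 70610. Across all 24 libraries the highest sum was 1.26 times the lowest, while the library totals differed 3.21-fold. The 2 lowest sums belonged to the 2 shallowest libraries, replicate 2 of the quadruple mutant (56791 of 3087933 counts) and replicate 2 of the double mutant (58587 of 3751667). The highest sum belonged to the deepest library, *jmjd-1.2* replicate 3 (71303 of 9906241).

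**Figure D1:**
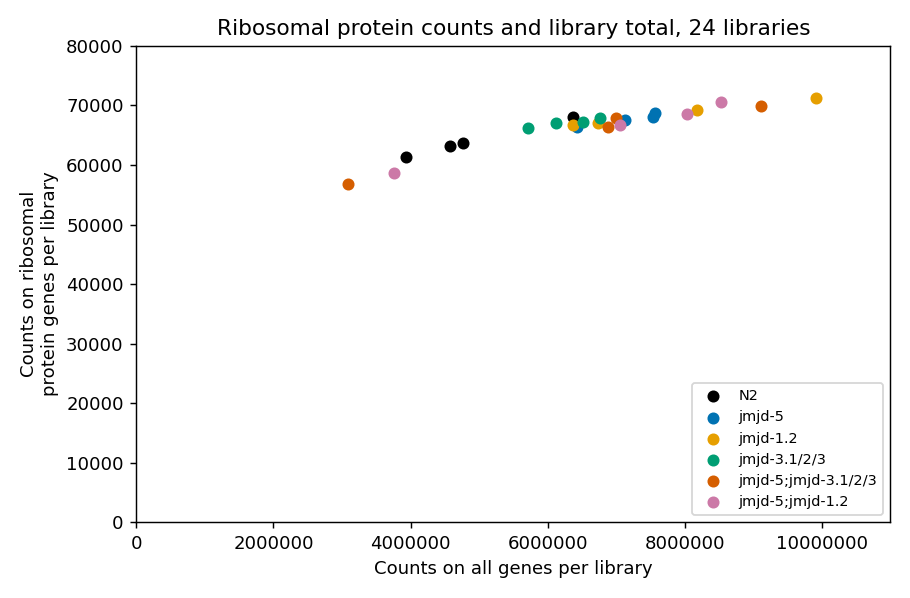
Counts on the 76 ribosomal protein genes (y axis) against counts on all genes (x axis), one point per library, coloured by strain. The points lie along 1 shallow curve from 56791 to 71303 counts, with N2 among the shallower libraries.

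The counts on genes of the small subunit behaved as a block. *rps-20*, a component of the head of the small subunit, had 644 to 688 counts in the N2 libraries and 667 to 682 in *jmjd-5*. It had 671 to 702 counts in *jmjd-1.2*, 668 to 678 in the triple mutant, 608 to 697 in the quadruple and 633 to 687 in the double mutant. These unscaled counts of every strain therefore overlapped those of N2, while levels scaled to the library total are compared below. *rps-23*, which lines the decoding centre where codons are read, had 798 to 864 counts in N2 and 827 to 849 in *jmjd-5*. *rps-6*, the substrate of S6 kinase, had 1204 to 1362 counts in N2 and 1322 to 1370 in *jmjd-5*. Genes with an rps name took 41.3% to 42.1% of all ribosomal protein counts in every library. Counts of both groups hardly rose with depth, so that this share of RNA counts cannot show the balance between the subunits.

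In the large subunit *rpl-3*, a protein at the peptidyl transferase centre, had the most counts of the family. It had 2182 to 2331 in N2, 2302 to 2351 in *jmjd-5*, 2290 to 2431 in *jmjd-1.2* and 2306 to 2358 in the triple mutant. Its counts were 2027 to 2425 in the quadruple and 2091 to 2425 in the double mutant, and the unscaled counts of every strain overlapped those of N2. This overlap does not extend to levels scaled to the library total, which are compared below. *rpl-39*, a very small protein of the exit tunnel, had 255 to 292 counts in N2 and 281 to 297 in *jmjd-5*. Only *rpl-37* and *rpl-42* fell below 200 counts in any library. *rpl-37* had 23 to 56 counts in every library and *rpl-42* 31 to 284. These are counts, not levels per length, and they do not rank the genes by abundance.

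How the count of a gene followed the library total was measured as the slope of log2 count (with 0.5 added) on log2 total within strains, over the 24 libraries. A gene that is sampled in proportion to depth has a slope of 1. The median slope of the 76 genes was 0.19, and of all 15641 tested genes 1.31 (quartiles 1.06 and 1.52). Of the 76 genes 73 had a slope under 0.5, against 2.51% of tested genes. The lowest slope was that of *rps-20* (0.117). The 3 genes above 0.5 were *rpl-24.2* (0.764), *rpl-37* (0.814) and *rpl-42* (1.63). The low slopes are not shared by genes of similar count, since tested genes outside the family with a mean of 300 to 1000 counts had a median slope of 1.11 and those with 1000 to 3000 counts 0.969. The authors removed PCR duplicates before counting, which keeps reads that start and end alike once, and its part in the low slopes was not tested.

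**Figure D2:**
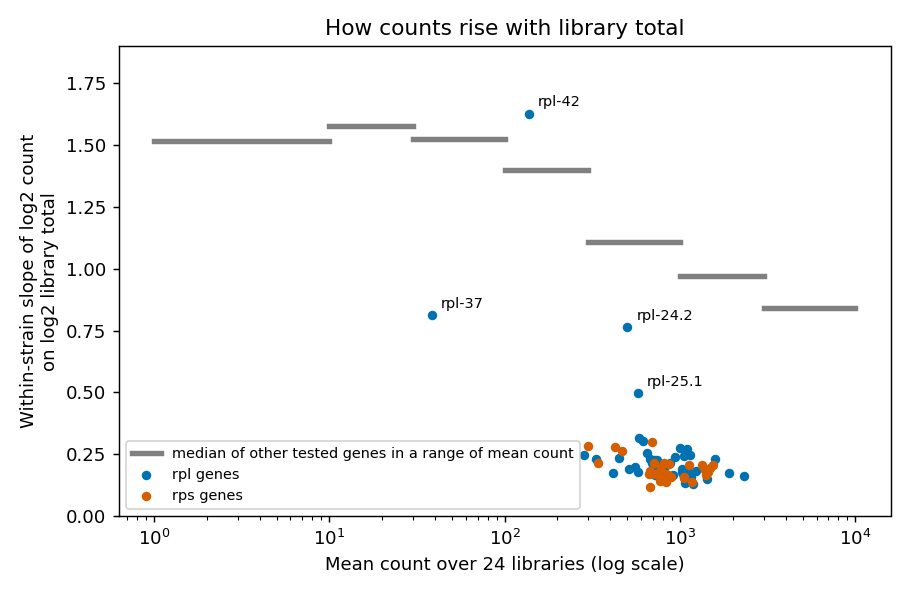
Within-strain slope of log2 count on log2 library total (y axis) against the mean count over 24 libraries (x axis, log scale) for each rpl gene (blue) and rps gene (orange), with grey bars for the median of the other tested genes in each range of mean count. Of the 76 genes 73 lie below 0.5, and *rpl-42* lies at 1.63, near other genes of its count.

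Other transcripts of the translation machinery lay between these extremes. The 6 ribosome parts with other names (*rla-0*, *rla-1* and *rla-2* of the stalk, *ubl-1* and *ubq-2*, which are made as ubiquitin-like or ubiquitin fusions, and *rack-1*) had a median slope of 0.184. The 8 elongation and poly(A)-binding genes had one of 0.279. The median was 0.741 in 23 initiation factor genes, 0.929 in 66 mitochondrial ribosomal protein genes, 1.02 in 22 ribosome biogenesis genes and 1.1 in 8 genes of TOR signalling. These slopes are a description, since the points share their libraries.

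Because counts on the family stayed level while totals rose, its share of the library was lower in the deeper libraries. The share ran from 0.720% (95% exact interval 0.715% to 0.725%) in *jmjd-1.2* replicate 3 to 1.84% (1.82% to 1.85%) in quadruple mutant replicate 2. The intervals cover counting error only. The share was 1.33% ± 0.247 (SD, n = 3) in N2, 0.954% ± 0.0681 (n = 3) in *jmjd-5* and 0.902% ± 0.148 (n = 4) in *jmjd-1.2*. It was 1.07% ± 0.0685 (n = 4) in the triple mutant, 1.14% ± 0.478 (n = 4) in the quadruple and 1.05% ± 0.346 (n = 4) in the double mutant. Every mutant had a lower mean than N2, and every mutant also had more counts per library on average than N2 (6274360 to 7796740 against 4908340).

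**Figure D3:**
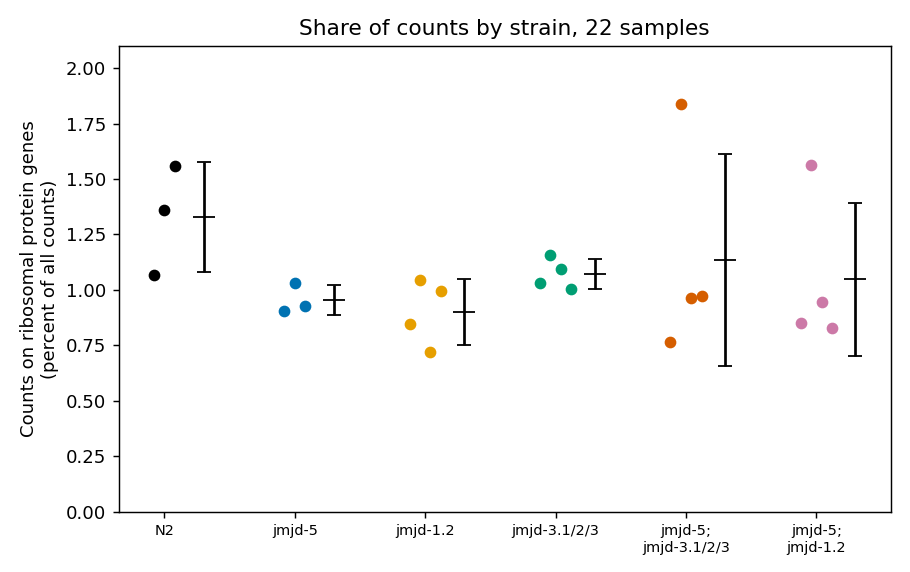
Share of all counts on the 76 ribosomal protein genes (percent, y axis) in each of the 22 samples by strain, with the mean and SD as black bars beside the points. The highest points of the quadruple and double mutants, 1.84% and 1.56%, are their shallowest libraries.

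The strains were compared with edgeR's quasi-likelihood test on counts scaled by TMM, which divides by an adjusted library total. A gene passed at a Benjamini-Hochberg adjusted p under 0.01 over all 15641 tested genes. All 76 genes passed the filter on low counts and were tested. In this fit 75 of the 76 genes had a negative log2 fold change in every mutant against N2, and none of the 75 passed. The only gene of the family to pass in any of the 5 comparisons with N2 was *rpl-42*, which was higher.

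In *jmjd-5* against N2 the median log2 fold change of the family was -0.61, beside 0.09 for all tested genes. *rpl-42* passed as higher (28.6% of all genes were higher) and 0 genes passed as lower (17.3% of all genes). At an unadjusted p under 0.05, 14 of the 76 differed, 13 of them as lower, while 66.7% of all genes differed in either direction. DESeq2 had 56 at an unadjusted p under 0.05 and also passed 0 as lower. The lowest were *rps-23* at -0.65 (SE 0.32), *rps-20* at -0.64 (SE 0.32) and *rpl-11.1* at -0.64 (SE 0.31), with adjusted p of 0.0832, 0.087 and 0.0777 in edgeR's quasi-likelihood test. The highest after *rpl-42* were *rpl-24.2* at -0.30 and *rpl-37* at -0.33, which also had the highest slopes on depth. The scaled levels of 74 genes were lower in all 3 *jmjd-5* samples than in every N2 sample (34.2% of all genes), and *rpl-42* alone was higher in all (40.3%).

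In *jmjd-1.2* against N2 the median was -0.69, beside 0.07 for all genes, and the strain had the most counts per library on average. None of the 76 passed as higher (19.2% of all genes) or as lower (6.82%). At an unadjusted p under 0.05, 74 were lower, while 56.3% of all genes differed in either direction, and DESeq2 had 74 at that limit and passed 0. The lowest were *rps-20* (-0.74, SE 0.30), *rps-23* (-0.73, SE 0.30) and *rpl-2* (-0.73, SE 0.30), of which *rps-20* had an adjusted p of 0.0489 in edgeR's quasi-likelihood test. The scaled levels of 70 genes lay below every N2 sample (24.3% of all genes) and those of 0 lay above (28.5%).

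In the triple mutant against N2 the median was -0.45, beside 0.01 for all genes. *rpl-42* passed as higher (20.1% of all genes) and 0 genes as lower (10.5%), and *rpl-42* alone differed at an unadjusted p under 0.05 in edgeR (54.3% of all genes did), with 1 gene in DESeq2. *rps-23* and *rps-20* were again the lowest, both at -0.48, and *rpl-24.2* (-0.13) and *rpl-25.1* (-0.22) followed *rpl-42* at the other end. Only 4 genes lay below every N2 sample (25.6% of all genes), and *rpl-42* lay above (28.1%).

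In the quadruple mutant the median was -0.32, beside 0.07 for all genes. *rpl-42* passed as higher (16.9% of all genes) and 0 genes as lower (4.07%), and in edgeR *rpl-42* alone differed at an unadjusted p under 0.05 (45.6% of all genes did), with 1 gene in DESeq2. The lowest were *rpl-39* (-0.39, SE 0.26), *rpl-31* (-0.37) and *rps-21* (-0.37). No gene lay below every N2 sample (11.5% of all genes) and *rpl-42* lay above (23.9%). The double mutant had a median of -0.45, beside 0.05 for all genes, with *rpl-42* higher (26.9% of all genes) and 0 genes lower (12.8%). There 2 genes, *rpl-42* and 1 that was lower, differed at an unadjusted p under 0.05 (61.1% of all genes did), and DESeq2 had 2 at that limit and passed 0 as lower. The lowest were *rpl-39* (-0.49, SE 0.26), *rpl-29* (-0.49) and *rps-24* (-0.48). No gene lay below every N2 sample (15.7% of all genes) and *rpl-42* lay above (26.4%).

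These medians moved with single libraries. Without N2 replicate 3 they were -0.43 in *jmjd-5*, -0.53 in *jmjd-1.2*, -0.27 in the triple mutant, -0.14 in the quadruple and -0.27 in the double mutant. Without its replicate 2 the quadruple mutant had a median of -0.71 and the double mutant one of -0.77.

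The calls turned on 2 libraries. When the shallowest library of the quadruple and of the double mutant was left out, 74 genes passed as lower in *jmjd-5* (33.2% of all genes did) and 74 in *jmjd-1.2* (23.3%). As many as 70 passed as lower in the triple mutant (26.6%), 74 in the quadruple mutant (23.9%) and 74 in the double mutant (33.9%). This setting was chosen after seeing the data. All strains share 1 estimate of the spread, so that these libraries entered every comparison.

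With the log2 library total as a second term of the model, the shortfall of the family was close to 0 in every mutant. Whether counts that hardly rise with the total would follow a difference in RNA level was not tested. Values close to 0 therefore do not show equal levels. The median log2 fold change became -0.06 in *jmjd-5*, -0.05 in *jmjd-1.2*, -0.08 in the triple mutant, -0.07 in the quadruple and -0.07 in the double mutant. The median SE of a gene was then 0.03, against about 0.3 without the term. *rpl-42* stayed higher in *jmjd-5* (25.6% of all genes were) and 0 genes were lower (21.3%). In *jmjd-1.2* 0 were higher (11.6%) and 0 lower (5.7%). In the triple mutant *rpl-42* was higher (20.7%) and *rps-2* lower (17.9%), with a log2 fold change of -0.10 (SE 0.03, adjusted p = 0.00975, edgeR quasi-likelihood test). In the quadruple mutant *rpl-42* was higher (15.1%) and 0 were lower (8.54%). In the double mutant *rpl-42* was higher (24.3%) and *rpl-12*, a protein of the stalk base, lower (18.7%) at -0.10 (SE 0.03, adjusted p = 0.00584, edgeR quasi-likelihood test). *rps-2* and *rpl-12* were named after their values were seen. At an adjusted p under 0.05, which was added after seeing the data, 5, 1, 30, 16 and 15 genes were lower in these 5 comparisons, where 27.6%, 12.5%, 25.6%, 15.1% and 26.3% of all genes were. Only the 30 in the triple mutant and the 16 in the quadruple lay above the share of all genes. Depth and strain are partly confounded, since 3 of 4 N2 libraries held fewer counts than any library of *jmjd-5*, *jmjd-1.2* or the triple mutant.

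**Figure D4:**
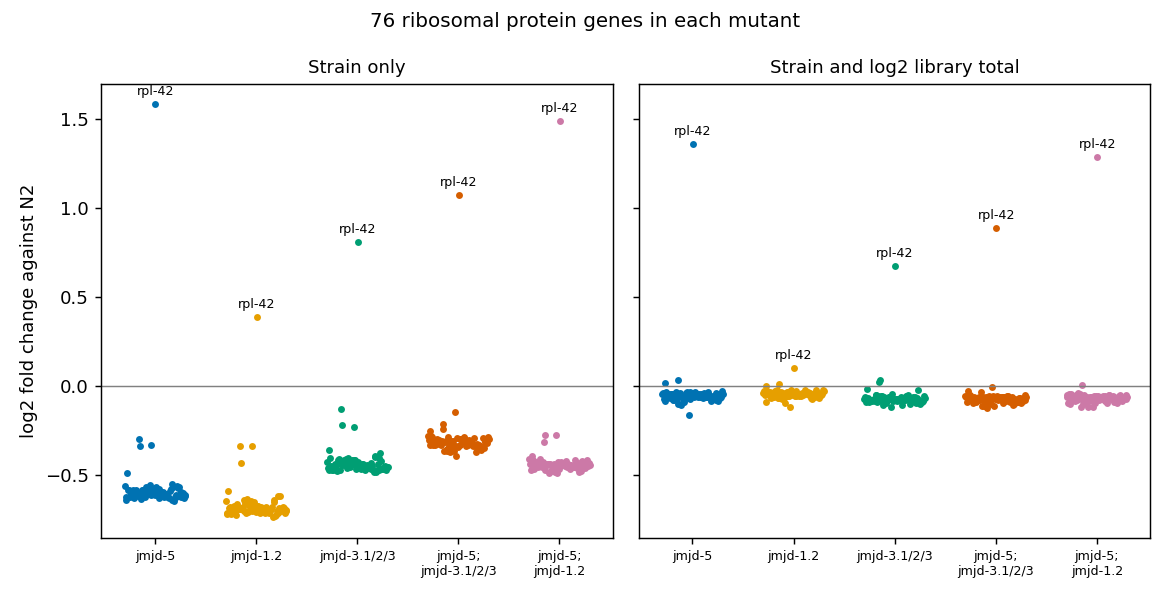
log2 fold change against N2 (y axis) of each of the 76 ribosomal protein genes in the 5 mutants (x axis), fitted with strain only (left) and with the log2 library total as a second term (right). The family lies at medians of -0.32 to -0.69 on the left and -0.05 to -0.08 on the right, with *rpl-42* above it in both.

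The mutant and N2 libraries closest in depth were also compared without scaling. *jmjd-1.2* replicate 2 (6370996 counts) and N2 replicate 1 (6372354) held 66639 and 68092 ribosomal protein counts, a difference of -2.13%, and 71 of 76 genes had the lower count in the mutant. *jmjd-5* replicate 2 (6431200 counts) differed from N2 replicate 1 by -2.61%, with 74 genes lower. Triple mutant replicate 1 (6508317 counts) differed from it by -1.34%, with 66 lower, and quadruple mutant replicate 3, the deeper library of its pair (6881159 counts), by -2.44%, with 73 lower. Double mutant replicate 2 differed from N2 replicate 3 by -4.40%, with 75 lower, at 3751667 against 3927979 counts. Relative to the library totals, the median log2 ratio of the 76 genes was -0.03 in the *jmjd-1.2* pair, -0.05 in the *jmjd-5* and triple mutant pairs, -0.15 in the quadruple mutant pair and 0.00 in the double mutant pair. The quadruple and double mutant pairs were the least closely matched in depth. All 5 pairs have no replicate check, and 4 of the 5 use the same N2 library. The share of all genes with the lower count in each pair was not counted, so that the numbers of lower genes have no background. Whether these counts would follow a difference in RNA level was not tested either.

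*rpl-42* was the exception in the family. Its scaled level, in TMM-scaled CPM (counts relative to the adjusted library total), was 7.87, 10.0 and 12.5 in the 3 N2 samples. It was 29.6, 29.9 and 30.4 in *jmjd-5*, above every N2 sample and nearly constant. It was 10.5, 10.6, 15.1 and 15.2 in *jmjd-1.2*, which overlapped N2. In the triple mutant it was 16.3, 17.1, 17.8 and 18.7, and in the quadruple mutant 19.4, 20.2, 20.8 and 23.2. In the double mutant 3 samples had 30.9, 31.1 and 31.2 CPM and the shallowest had 15.6. All samples of these 3 strains lay above N2.

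The log2 fold change of *rpl-42* against N2 was 1.58 (SE 0.20, adjusted p = 2.33e-06, edgeR quasi-likelihood test) in *jmjd-5* and 1.49 (SE 0.20, adjusted p = 2.41e-06) in the double mutant. In edgeR's quasi-likelihood test it was 1.07 (adjusted p = 0.000399) in the quadruple mutant and 0.81 (SE 0.20, adjusted p = 0.00328) in the triple mutant. It did not pass in *jmjd-1.2* (0.39, SE 0.21, adjusted p = 0.123). With the library total in the model the values were 1.36 in *jmjd-5*, 1.28 in the double mutant, 0.89 in the quadruple mutant, 0.67 in the triple mutant and 0.10 in *jmjd-1.2*. Without the summed N2 replicates 2 and 4, the sample with the lowest level, the triple mutant (0.59, adjusted p = 0.0536) and the quadruple mutant (0.86, adjusted p = 0.0114) no longer passed in edgeR's quasi-likelihood test. In unscaled counts at nearly equal depth, *rpl-42* had 195 counts in *jmjd-5* replicate 2, 67 in *jmjd-1.2* replicate 2 and 79 in N2 replicate 1. Triple mutant replicate 1 had 126, and the deeper quadruple mutant replicate 3 had 139. Double mutant replicate 2 had 53 counts, against 35 in N2 replicate 3, the library closest to it in depth. The libraries do not mark strand, so that reads of an overlapping gene cannot be told apart. Of its nearest neighbours in gene order, *unc-53* rose in *jmjd-5* by 0.74, *F33A8.6* rose by 0.47 and *C09H10.10* fell by 0.31 on the log2 scale. *F45E10.2* and *nuo-1* did not pass there. No tested gene carried the name *C09H10.2*, and whether the tables hold this gene under an older name was not checked. *unc-53* also passed as higher in *jmjd-1.2* (0.51), where *rpl-42* did not.

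**Figure D5:**
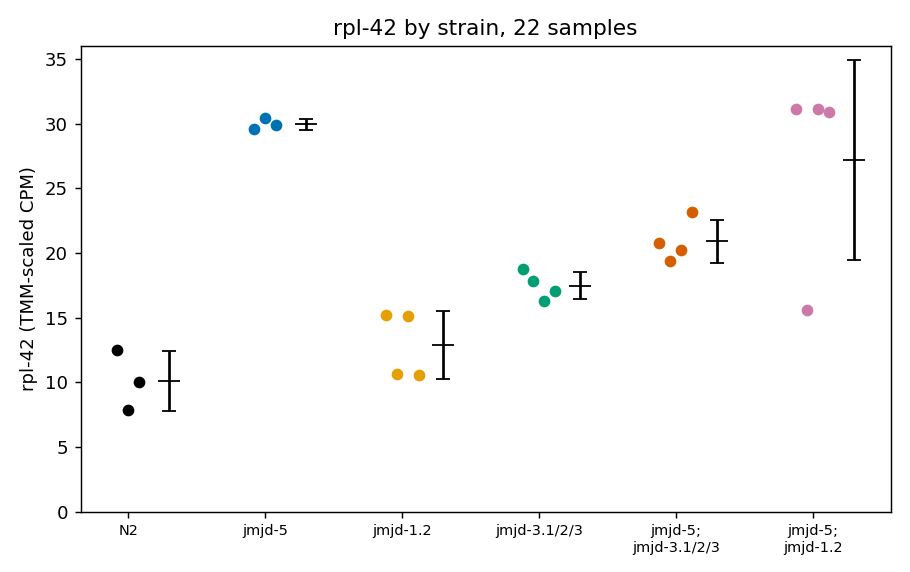
Scaled level of *rpl-42* (TMM-scaled CPM, y axis) in each of the 22 samples by strain, with the mean and SD as black bars beside the points. *jmjd-5* lies at 29.6 to 30.4 and N2 at 7.87 to 12.5, and 1 double mutant sample lies at 15.6.

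Adding the other mutations to *jmjd-5* was asked with 2 comparisons. Against *jmjd-5*, the quadruple mutant had a family median of 0.29, beside 0.00 for all genes, and 0 genes passed as higher (2.79% of all genes) or lower (2.11%). The median turned to -0.11 without quadruple mutant replicate 2 and was -0.02 with the library total in the model. At an unadjusted p under 0.05, 1 gene was lower, which was *rpl-42* (-0.51, SE 0.17, adjusted p = 0.042, edgeR quasi-likelihood test), while 34.9% of all genes differed, and DESeq2 had 1 at that limit and passed 0. With the library total in the model *rpl-42* passed as lower (-0.47, adjusted p = 0.00655, edgeR quasi-likelihood test, where 7.75% of all genes were lower). The double mutant had a median of 0.16, beside 0.04, and 0 genes passed as higher (0.454% of all genes) or lower (0.742%), with 0 at an unadjusted p under 0.05 in edgeR and in DESeq2 (14.8% of all genes in edgeR). This median turned to -0.17 without double mutant replicate 2 and was -0.01 with the library total in the model. *rpl-42* differed from *jmjd-5* by -0.10 (SE 0.16) there.

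The interaction terms asked whether the effect of *jmjd-5* loss differed when the other demethylases were also lost. For the 3 mutations of the triple mutant the family median was 0.74, beside -0.03 for all genes, 0.34 without quadruple mutant replicate 2 and 0.06 with the library total in the model. As higher 0 genes passed (13.5% of all genes). In edgeR *rpl-42* alone differed at an unadjusted p under 0.05, while 58.9% of all genes did, and DESeq2 had 32 at that limit and passed 0 as higher. *rpl-42* passed as lower (21.6%), with an interaction of -1.31 (SE 0.27, adjusted p = 0.000423, edgeR quasi-likelihood test). Its increases of 1.58 in *jmjd-5* and 0.81 in the triple mutant thus exceeded, when added, the 1.07 of the strain with all 4 mutations. With the library total in the model the interaction was -1.14 (adjusted p = 0.00011, edgeR quasi-likelihood test, where 23% of all genes were lower). For *jmjd-1.2* the family median was 0.85, beside -0.09 for all genes, 0.50 without double mutant replicate 2 and 0.03 with the library total. None of the 76 genes passed as higher (3.46% of all genes) or lower (9.26%), with 58 higher at an unadjusted p under 0.05, while 48.9% of all genes differed in either direction. DESeq2 had 60 at that limit and passed 0. *rpl-42* had an interaction of -0.48 (SE 0.26, adjusted p = 0.145, edgeR quasi-likelihood test).

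The family holds 3 pairs of genes that share a number. *rpl-11.1* and *rpl-11.2* encode copies of L11, which joins the large subunit with the 5S ribosomal RNA, and *rpl-11.1* is known for its role in the germline. Their reads are uncertain where the copies match. *rpl-11.1* had 988 to 1069 counts in N2 and 1030 to 1061 in *jmjd-5*. *rpl-11.2* had 865 to 1016 counts in N2 and 1015 to 1054 in *jmjd-5*. The unscaled counts of the 2 strains thus overlapped for both genes, for *rpl-11.2* only just. The scaled levels of both genes were lower in every *jmjd-5* sample than in every N2 sample. The ratio of *rpl-11.2* to *rpl-11.1* was 0.899 ± 0.0445 (SD, n = 3) in N2 and 0.992 ± 0.00633 (n = 3) in *jmjd-5*. It was 0.893 and 0.899 in the shallowest libraries of the quadruple and the double mutant, and in the libraries of nearly equal depth it was 0.95 in N2 replicate 1 and 0.985 in *jmjd-5* replicate 2. The part of depth in this difference was not tested.

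*rpl-24.2* is the ortholog of an assembly factor of the large subunit rather than of L24 itself, which *rpl-24.1* encodes. *rpl-24.1* had 847 to 917 counts in N2 and 915 to 936 in *jmjd-5*, while *rpl-24.2* had 349 to 508 and 500 to 547. The ratio of *rpl-24.2* to *rpl-24.1* was 0.472 ± 0.0733 (SD, n = 3) in N2 and 0.569 ± 0.0218 (n = 3) in *jmjd-5*. In the double mutant it was 0.539 ± 0.138 (n = 4) and ran from 0.337 in the shallowest library to 0.643. For the pair of L23a copies, the ratio of *rpl-25.1* to *rpl-25.2* was 0.676 ± 0.048 (n = 3) in N2, 0.821 ± 0.0188 (n = 3) in *jmjd-5* and 0.761 ± 0.0859 (n = 4) in the quadruple mutant. It was 0.635 and 0.663 in the shallowest libraries of the quadruple and the double mutant. At nearly equal depth it was 0.728 in N2 replicate 1 and 0.8 in *jmjd-5* replicate 2. In these 2 libraries the ratio of *rpl-24.2* to *rpl-24.1* was 0.554 and 0.546. The part of depth in both ratios was not tested. No gene of the 3 pairs passed in any comparison.

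Some genes of the ribosome biogenesis list passed the test. In *jmjd-5* the median SE of the 22 biogenesis genes was 0.09, against 0.30 for the ribosomal protein genes. Of these 22 genes, 6 were lower in *jmjd-5*, 1 in *jmjd-1.2*, 3 in the triple mutant, 7 in the quadruple and 9 in the double mutant, and 0 were higher in any. Of all genes, 17.3%, 6.82%, 10.5%, 4.07% and 12.8% were lower in these 5 mutants, so that the counts in *jmjd-1.2* and the triple mutant lay near the share of all genes. *rpoa-12*, a subunit of RNA polymerase I, fell by 0.55 on the log2 scale in *jmjd-5* (SE 0.09, adjusted p = 2.22e-05, edgeR quasi-likelihood test). *ncl-1*, a repressor of ribosomal RNA synthesis that is counted in the list, fell by 0.65 in the quadruple mutant (SE 0.12, adjusted p = 0.000254, edgeR quasi-likelihood test) and by 0.67 against *jmjd-5*. With the library total in the model 13, 1, 8, 10 and 14 biogenesis genes were lower and 0 higher, where 21.3%, 5.7%, 17.9%, 8.54% and 18.7% of all genes were lower. The 1 gene in *jmjd-1.2* was again no more than that share.

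The other groups are read against the same shares. Of 23 initiation factor genes 2 were lower in *jmjd-5*, 2 in *jmjd-1.2*, 0 in the triple mutant, 0 in the quadruple and 2 in the double mutant, which is near or below the share of all genes. These were *eif-6* and *ife-2* each time. *eif-6*, which keeps the subunits apart until the large one is ready, fell by 0.49 in *jmjd-5*. In the model with the library total 12, 1, 4, 8 and 13 initiation factor genes were lower, so that the counts in *jmjd-5* and the quadruple and double mutants depended on that term. Among 8 genes of TOR signalling, *raga-1* and *ragc-1*, which encode Rag GTPases, fell in *jmjd-5* by 0.39 and 0.50 on the log2 scale, and *hlh-30*, the TFEB factor of autophagy, rose by 0.54. When the total was a term, 2 of the 8 were lower in *jmjd-5* and 0 higher, so that *hlh-30* no longer passed. Of 66 mitochondrial ribosomal protein genes 23 were lower in *jmjd-5*, 11 in *jmjd-1.2*, 1 in the triple mutant, 2 in the quadruple and 12 in the double mutant, and 0 were higher. The counts in the triple and quadruple mutants lay below the share of all genes. In the model with that term 17, 2, 4, 4 and 11 of them were lower, and only the 17 in *jmjd-5* lay above the share of all genes.

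The 6 ribosome parts with other names and the 8 elongation and poly(A)-binding genes held no gene that passed against N2 in edgeR's quasi-likelihood test with strain alone. At an unadjusted p under 0.05, 1 of the 6 and 2 of the 8 differed in *jmjd-5*, where 66.7% of all genes did. Of those 2, only 1 was lower. In *jmjd-1.2* 6 and 6 were lower, while 56.3% of all genes differed in either direction. With the library total in the model 1 elongation or poly(A)-binding gene was lower in each mutant other than *jmjd-1.2*. Of all genes, 21.3% were then lower in *jmjd-5*, 17.9% in the triple, 8.54% in the quadruple and 18.7% in the double mutant. Their medians in *jmjd-5* with strain alone were -0.60 and -0.57, close to the -0.61 of the ribosomal protein genes.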

How the data were processed

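Per the labels and the methods of the study, the authors aligned whole-worm RNA reads (TruSeq, no strand mark) to ce10 with STAR, discarded multiply matching reads, removed PCR duplicates with samblaster and deposited featureCounts counts per gene, without normalization. The tables of the authors' own comparisons (fold changes and p-values) and the ChIP peak lists were not used. Tests used the quasi-likelihood method of edgeR 4.0.16 (R 4.3.3) after TMM scaling and filterByExpr, in 1 fit over all samples with strain alone as term. A gene passed, higher or lower, when its Benjamini-Hochberg adjusted p was under 0.01. Library pairs with a mean chi-square per gene under 1.1 were summed. limma 3.58.1 and DESeq2 1.42.0 gave alternatives. The tests were tested on simulated data. Members and lists were chosen with earlier results of these data known. Named genes were the pairs sharing a number, the 3 highest and 3 lowest log2 fold changes per comparison, the extremes of mean level, and the mutated genes. The tables' names follow an older annotation, and 59 of 76 are current RefSeq symbols (WBcel235, used for names and neighbour order only), so that gene length and sequence were not used here. Slopes and library-pair comparisons carry no test.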

Additional observations from a re-analysis of the deposited data

Results flagged for a closer look

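In 48 groups of 4 samples tested for a sample far from the others, at a limit that 1 in 20 passes by chance, 3 stood apart. The groups share samples and are not independent, so that this number cannot be weighed against chance. All 3 are replicate 2 of the double mutant, the second shallowest library. Its ribosomal protein share was 1.56%, against 0.947% in the nearest sample. Its *rpl-24.1* level was 246 CPM, against 128 in the nearest, and its *rpl-42* level 15.6, against 30.9. The part of depth in these values was not tested beyond the model with the library total.

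The effect of *jmjd-5* loss on *rpl-42* differed with and without the 3 mutations of the triple mutant, by an interaction of -1.31 on the log2 scale in edgeR's quasi-likelihood test. Over the alternatives it ran from -1.49 to -0.87, with adjusted p from 9.93e-06 to 0.00429.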

How the results depend on the processing

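Leaving out each sample in turn, the number of ribosomal protein genes that passed stayed at 1 in *jmjd-5*, and ran from 0 to 23 in *jmjd-1.2*, 0 to 1 in the triple mutant, 0 to 5 in the quadruple and 1 to 3 in the double mutant, against main counts of 1, 0, 1, 1 and 1. For the quadruple mutant against *jmjd-5* it ran from 0 to 1. The highest counts came without replicate 2 of the quadruple mutant (23 and 5) or of the double mutant (3 and, against *jmjd-5*, 1). With these 2 libraries both left out the counts were 75, 74, 71, 75 and 75, and 1 for the quadruple mutant against *jmjd-5*. With only the strains compared they were 75, 71 and 4 in *jmjd-5*, *jmjd-1.2* and the triple mutant, and 1 for the quadruple mutant against *jmjd-5*. Of these, 74, 71, 3 and 1 were lower. Cyclic loess gave 2, 1, 0 and 2 in *jmjd-5*, *jmjd-1.2*, the triple mutant and the double mutant, and 2 for the interaction of *jmjd-5* loss with the triple mutations. An adjusted p under 0.05 gave 46 in *jmjd-1.2*, 2 in the double mutant and 1 for the quadruple mutant against *jmjd-5*, and a minimum log2 fold change of 1 gave 0 in the triple mutant. The 46 were all lower. The library total gave 2 in the triple mutant, 2 in the double mutant and 1 for the quadruple mutant against *jmjd-5*, and with an adjusted p under 0.05 the counts were 6, 1, 31, 17, 16 and 1. The cause of these moves was not tested. Where no share of all genes is given above, it was not counted, so that these counts stand without a background. RLE, DESeq2, no filter and TMM without the family kept each count within 1.5 times.

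With all 24 libraries separate and the replicate number as a block, 73 genes passed in *jmjd-5*, 74 in *jmjd-1.2*, 2 in the double mutant, 1 for the quadruple mutant against *jmjd-5* and 2 for the interaction with *jmjd-1.2*. Of the 73 and 74, 72 and 74 were lower, and the share of all genes in this setting was not counted. The replicate numbers were not taken to pair the libraries, since only 27 of 60 same-number pairs, and not every pair, had a correlation over 0.1 (lowest -0.23, highest 0.55). As many as 12 of 24 libraries correlated best with their own number, which is a hint of shared variation from the data, not from the design. Without the block, separate libraries kept each count within 1.5 times and each strain's share within 1 SD.

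The family median in *jmjd-5* ran from -0.80 to -0.43 without 1 sample and was -0.38 with cyclic loess. Against *jmjd-5* both compound mutants changed sign without their replicate 2 (-0.11 and -0.17). *rpl-42* rose in every setting in *jmjd-5* (1.17 to 1.76) and the double mutant (1.08 to 1.67). In the triple mutant it missed the threshold with cyclic loess. Sequence features were not run. Depth limits any statement on levels of the family, whose counts hardly rise with the total.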
